A study of Mus musculus with 19 samples.

Results

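Fibroblast growth factor (FGF) ligands and their receptors were followed as 8 genes in RNA sequencing of mouse plantaris tendon: the ligands Fgf1, Fgf2, Fgf7, Fgf10 and Fgf18 and the receptor genes Fgfr1, Fgfr2 and Fgfr3. They were taken by symbol from the 24972 genes listed, and all 8 passed the filter on low values that left 16625 genes for testing. The 19 libraries formed 5 groups. There were 4 libraries from Scx- mice and 4 from Scx+ mice after 14 days of a growth stimulus, and 4 from Scx- mice and 4 from Scx+ mice after 7 days, all with tamoxifen. The other 3 came from Scx+ control mice with neither stimulus nor tamoxifen, so in every comparison with the control the stimulus and tamoxifen cannot be told apart, and for Scx- mice the genotype differs as well. Per the study's title, Scx- mice carry a targeted deletion of scleraxis (Scx), a basic helix-loop-helix transcription factor of the tendon lineage. The labels do not give the alleles, the driver of a recombinase, the kind of stimulus, the strain, the sex or the age, nor whether each library is a separate animal.

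FGFs are secreted signals that bind receptor tyrosine kinases together with heparan sulfate, and the receptor passes the signal through adaptor proteins and Ras to the kinases MEK and ERK. Fgf7 and Fgf10 act mainly on a splice form of Fgfr2 found in epithelia, whereas Fgf1 can bind every FGF receptor and Fgf18 is known for its action on cartilage and bone through Fgfr3. In limb development FGF signals contribute to the growth of tendon progenitors, and in chick embryos FGF can induce Scx. Gene-level values do not tell the splice forms of a receptor apart.

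Scx checked the labels: its rescaled signal averaged 3.73 ± 1.97 in Scx- and 3995 ± 1411 in Scx+ libraries at day 14, and 10.2 ± 4.91 in Scx- and 4930 ± 2415 in Scx+ libraries at day 7 (SD, n = 4 each). In the control, also labelled Scx+, it averaged 451 ± 137 (SD, n = 3), so Scx itself was 8.58-fold higher in Scx+ day 14 and 10.3-fold higher in Scx+ day 7 libraries than in the control (adjusted p = 1.59e-05 and 4.67e-06, limma). The signal summed over genes ranged from 36.6 to 79.8 M units per library, and the reads behind it are unknown. The libraries also differed in marker genes of several cell types. Genes of the skeletal muscle fibre list (22 of 22 detected in every library) held 4.46% to 19.7% of the signal in Scx- day 14 libraries, 0.284% to 9.13% in Scx+ day 14, 0.39% to 6.46% in Scx- day 7, 0.0355% to 2.25% in Scx+ day 7 and 25.3% to 30.2% in the control. Fat cell genes held 0.0206% to 0.792% in stimulated libraries and 0.673% to 0.798% in the control. The 13 tendon lineage genes held 1.22% to 7.83% in Scx- day 14, 6.49% to 9.84% in Scx+ day 14, 4.31% to 6.75% in Scx- day 7 and 6.47% to 10% in Scx+ day 7 libraries, against 0.286% to 0.931% in the control. The 16 macrophage genes held 0.108% to 0.872% in stimulated libraries and 0.0429% to 0.0975% in the control. In such bulk samples fewer cells of a type and less RNA per cell cannot be told apart.

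On mm10 (GENCODE M21) Fgf2 lies at chr3:37348346-37410108 (+), Fgf7 at chr2:126034658-126091185 (+), Fgf10 at chr13:118669791-118792115 (+), Fgf18 at chr11:33117430-33147400 (-), Fgfr1 at chr8:25513654-25575718 (+), Fgfr2 at chr7:130162451-133123350 (-) and Fgfr3 at chr5:33721674-33737068 (+), and Fgf1 is on chromosome 18. The Fgfr2 span covers all its annotated transcripts, and the RefSeq start used for its promoter below lies well inside it. Fgfr1 was the most abundant member in every group. Per kilobase of merged exons, so that genes of different length can be set side by side, its signal averaged 1320 units over the 19 libraries, followed by Fgf7 at 289.8, Fgf18 at 223.5, Fgf1 at 105.2, Fgfr2 at 76.8, Fgfr3 at 59.0, Fgf10 at 53.1 and Fgf2 at 8.34. With the longest transcript as the length, Fgf1 and Fgfr2 traded places. Within each of the 5 groups the lowest Fgfr1 library lay above the highest library of the next member. Below Fgfr1 most neighbours overlapped: in Scx- day 14 libraries each member from Fgf7 down to Fgfr3 overlapped the next. The order also differed between groups. Fgf18 stood above Fgf7 in Scx+ day 14 (215.5 and 199) and in the control (245.8 and 234.9), with overlap in both, and Fgf10 ranked 5 in Scx- day 14. Fgfr2 ranked 3 in Scx+ day 7 libraries, whereas in the control it ranked 7 and overlapped Fgf2.

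**Figure D1:**
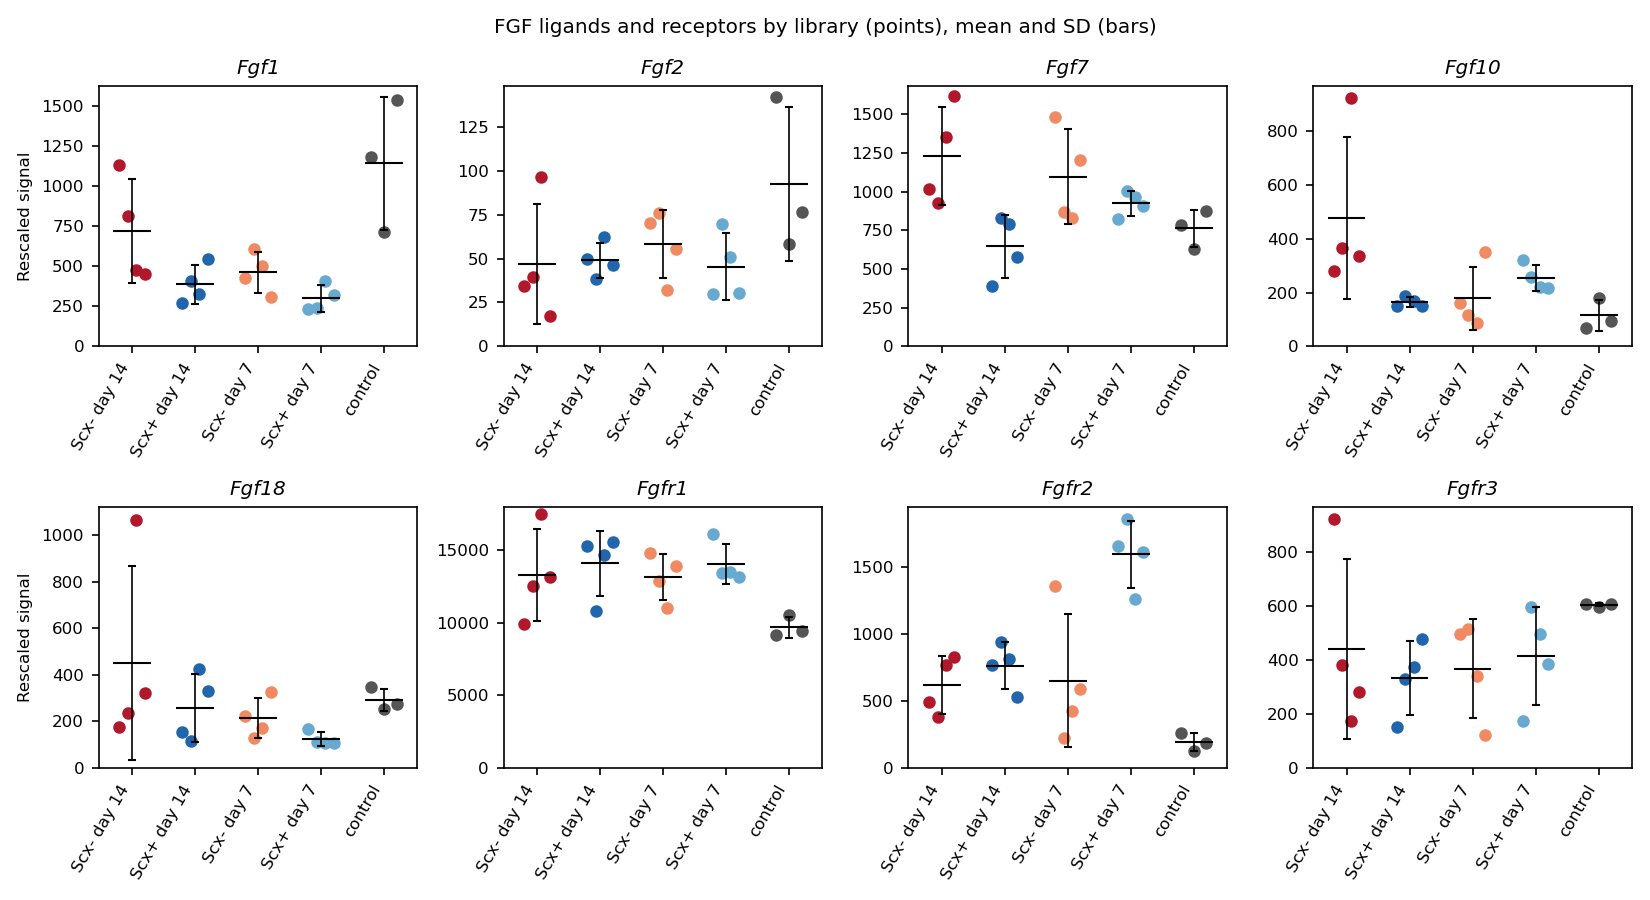
Rescaled signal (linear axis from 0) of the 8 genes in each library (points), with the mean (line) and SD (bars) of the 5 groups. Fgfr2 sits between 1258 and 1856 in the 4 Scx+ day 7 libraries and at 262 or below in the 3 control libraries, and Fgf10 reaches 924 in 1 Scx- day 14 library.

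The promoters of Fgf7, Fgf10 and Fgfr2 are shown because these genes had the largest differences between Scx- and Scx+ mice, and Scx belongs to the protein class that binds the E-box, CANNTG, a motif that reads the same on both strands. Each runs from 250 bases before to 50 after the RefSeq start on GRCm38.p6, 5′ to 3′ on the gene's strand, with each CANNTG in capitals.
Fgfr2 (chr7:130266759-130267058, strand -): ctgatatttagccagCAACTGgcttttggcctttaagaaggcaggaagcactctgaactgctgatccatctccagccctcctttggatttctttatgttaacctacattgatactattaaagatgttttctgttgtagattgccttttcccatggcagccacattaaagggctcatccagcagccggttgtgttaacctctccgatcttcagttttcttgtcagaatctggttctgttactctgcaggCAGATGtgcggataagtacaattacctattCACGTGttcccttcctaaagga
Fgf10 (chr13:118714449-118714748, strand +): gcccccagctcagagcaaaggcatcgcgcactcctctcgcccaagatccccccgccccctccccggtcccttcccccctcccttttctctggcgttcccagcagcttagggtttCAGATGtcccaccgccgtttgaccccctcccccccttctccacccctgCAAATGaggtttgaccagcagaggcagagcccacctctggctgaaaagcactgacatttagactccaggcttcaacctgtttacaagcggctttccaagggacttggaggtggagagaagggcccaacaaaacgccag
Fgf7 (chr2:126034408-126034707, strand +): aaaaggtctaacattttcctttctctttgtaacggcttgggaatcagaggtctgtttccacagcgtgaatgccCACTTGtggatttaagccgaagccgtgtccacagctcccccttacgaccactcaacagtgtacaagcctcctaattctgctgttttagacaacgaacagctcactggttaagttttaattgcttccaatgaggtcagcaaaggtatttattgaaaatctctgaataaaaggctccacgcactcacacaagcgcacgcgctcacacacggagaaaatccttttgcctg
The Fgfr2 window held 3 E-boxes, the Fgf10 window 2 and the Fgf7 window 1. Of all 32851 promoter windows of this length, 72.3% held at least 1, 39.6% at least 2 and 17.6% at least 3, so such counts are common. The Fgf2 and Fgf18 windows held none, and of the 2 Fgfr3 windows 1 held a single E-box. A match describes the letters and is not a measured site of binding.

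Fgf1, a ligand for all FGF receptors, was lower after the stimulus. Its signal was 1136, 817, 478 and 452 in Scx- day 14 libraries, 269, 407, 327 and 545 in Scx+ day 14, 429, 607, 505 and 308 in Scx- day 7 and 234, 237, 409 and 323 in Scx+ day 7, against 1184.5, 712 and 1540 in the control. Only the Scx- day 14 group overlapped the control, through its first 2 libraries. Against the control the log2 fold change was -1.54 ± 0.35 in Scx+ day 14 (adjusted p = 0.0014, limma), -1.28 ± 0.35 in Scx- day 7 (adjusted p = 0.00501) and -1.89 ± 0.35 in Scx+ day 7 (adjusted p = 0.000193; SE). In Scx- day 14 it was -0.70 ± 0.35 (adjusted p = 0.114, limma). The 2 Scx- day 14 libraries with the most Fgf1 were also those with 16.9% and 19.7% of their signal in muscle fibre genes, against 4.68% and 4.46% in the other two. With the mean log2 value of the muscle genes added to the fit, the Fgf1 change was -1.04 (adjusted p = 0.00669, limma), -0.73 (adjusted p = 0.0472) and -0.93 (adjusted p = 0.0486) in the 3 groups where it had fallen. Every control library had a higher muscle share (25.3% to 30.2%) than any stimulated one. Such a fit, for any member, therefore cannot fully separate muscle share from group.

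**Figure D2:**
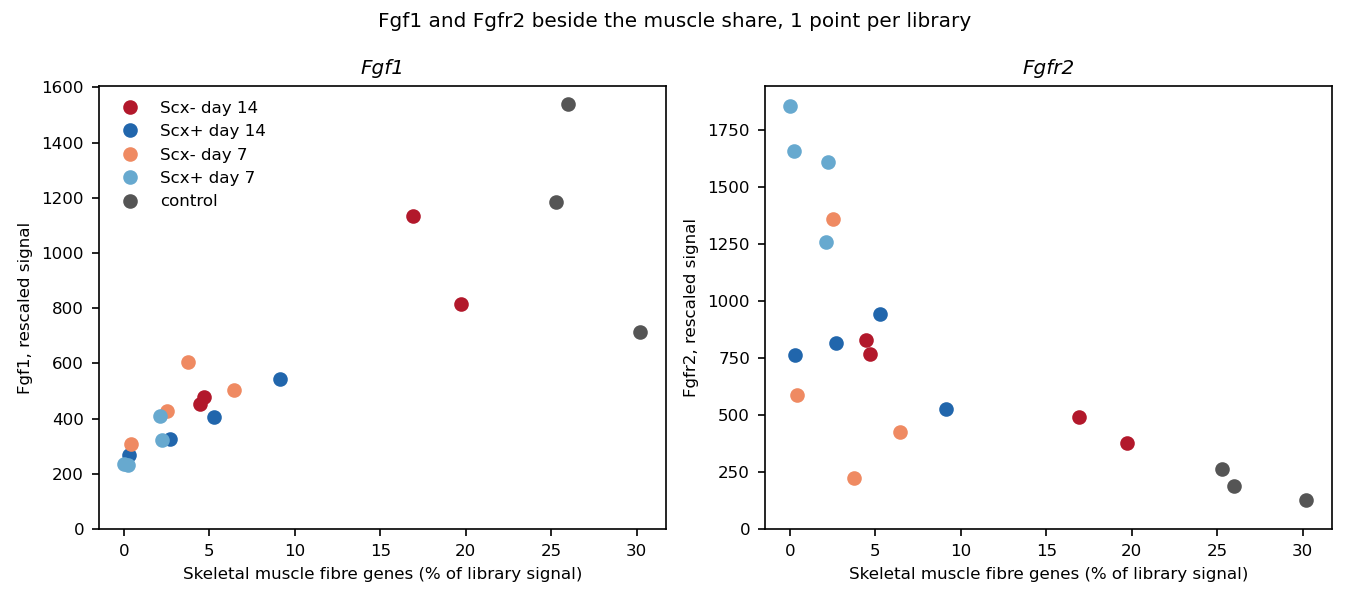
Rescaled signal of Fgf1 (left) and Fgfr2 (right) on linear axes from 0, against the percentage of library signal in the 22 skeletal muscle fibre genes, with 1 point per library coloured by group. The 3 control libraries lie at 25.3% to 30.2%, 2 Scx- day 14 libraries at 16.9% and 19.7%, and all others below 10%.

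Fgf7, a growth factor made by mesenchymal cells, had its highest mean in Scx- day 14 libraries. Its signal on the rescaled scale was 1019.5, 929, 1357 and 1622 in Scx- day 14 libraries and 390, 829, 791 and 575 in Scx+ day 14 libraries, so that on this scale every Scx- library lay above every Scx+ one. At day 7 it was 1480, 872, 831 and 1205 in Scx- and 822, 1003.5, 966 and 908 in Scx+ libraries, which overlapped, and the control had 782, 633 and 874. Fgf7 rose in Scx- day 14 libraries against the control, 1.59-fold (log2 0.67 ± 0.26, adjusted p = 0.0464, limma), and in none of the other 3 groups did it pass. The call was lost on leaving out control replicate 1, 2 or 3 or Scx- day 14 replicate 3 or 4 (adjusted p from 0.0525 to 0.165, limma).

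Fgf10, a ligand known for its part in limb bud and lung outgrowth, also had its highest mean in Scx- day 14 libraries. It stood at 282, 364, 924 and 336 in Scx- day 14 libraries and 151, 189, 168 and 150 in Scx+ day 14, again with no overlap. At day 7 the order was turned round in the means, with 160, 118, 88.4 and 349 in Scx- and 322, 256, 221 and 218 in Scx+ libraries, where Scx- replicate 4 was the highest of all 8. The control had 67.9, 181 and 95.3. Against the control Fgf10 rose 3.95-fold in Scx- day 14 (log2 1.98 ± 0.44, adjusted p = 0.00184, limma), and 2.35-fold in Scx+ day 7 (log2 1.24 ± 0.44, adjusted p = 0.0225). The Scx- day 14 call held on leaving out any 1 library (log2 1.61 to 2.36). The Scx+ day 7 call was lost without control replicate 1 (adjusted p = 0.111), control replicate 3 (0.0624) or Scx+ day 7 replicate 1 (0.0576), and in a fit that also held the muscle mean (log2 0.55, adjusted p = 0.474, all limma).

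Fgf18, a signal to cartilage and bone cells, fell in Scx+ day 7 libraries and passed in no other group. It was 223, 129, 173 and 328 in Scx- day 7 and 168, 113, 105 and 107 in Scx+ day 7 libraries, against 346, 253 and 276 in the control. The Scx+ day 7 libraries all lay below the control (log2 -1.25 ± 0.53, adjusted p = 0.0483, limma), but the call was lost in 6 of the 7 fits that left out 1 library, every one save that without Scx+ day 7 replicate 1. At day 14 it was 175, 234, 1069 and 321 in Scx- and 155, 114, 423 and 331 in Scx+ libraries, with 1 library far above the rest.

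Fgf2, a ligand of broad action, was the scarcest member, at 17.5 to 96.2 units in Scx- day 14, 38.2 to 62.2 in Scx+ day 14, 32.3 to 75.8 in Scx- day 7, 29.7 to 69.9 in Scx+ day 7 and 58.3 to 142 in the control, and passed in no comparison. In Scx- day 14 against the control (log2 -1.1 ± 0.5, adjusted p = 0.084, limma) it did pass without Scx- day 14 replicate 3 (-1.51, adjusted p = 0.0189) and on the deposited scale (-1.42, adjusted p = 0.0259). Over the 7 fits without 1 library Fgf2 ran from -1.51 to -0.74 (adjusted p from 0.0189 to 0.281, limma) and passed in only 1. Its exons share 640 bases with Nudt6 on the opposite strand, and reads of the pair cannot be told apart if the library kept no strand, which is not given in the sources used here. Nudt6 fell against the control in all 4 stimulated groups, by 1.30 to 2.03 on the log2 scale (adjusted p at most 0.000222, limma).

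Among the receptors, Fgfr2 had the largest change of the 8 genes in 3 of the 4 groups against the control. Its signal was 491, 376, 767 and 830 in Scx- day 14 libraries and 765, 941, 815 and 526 in Scx+ day 14, and 1360, 226, 424 and 587 in Scx- day 7 and 1656, 1856, 1258 and 1609 in Scx+ day 7, against 262, 129 and 188 in the control. All stimulated libraries but Scx- day 7 replicate 2 lay above the control. It rose 3.14-fold in Scx- day 14 (log2 1.65 ± 0.44, adjusted p = 0.00572, limma), 3.99-fold in Scx+ day 14 (log2 2.0 ± 0.44, adjusted p = 0.000961), 2.82-fold in Scx- day 7 (log2 1.5 ± 0.44, adjusted p = 0.00715) and 8.44-fold in Scx+ day 7 (log2 3.08 ± 0.44, adjusted p = 1.45e-05). Fitted together with the muscle mean, the 4 changes were 1.56, 1.68, 1.14 and 2.46, and each still passed (adjusted p at most 0.0499, limma). The limit given for Fgf1 holds here too: this fit cannot fully separate muscle share from group. The 10 cartilage genes, none of which is a member, held 0.0358% to 0.142% of the signal in Scx+ day 7 and 0.0052% to 0.0502% in Scx- day 7 libraries, against 0.00535% to 0.00817% in the control. In both day 7 groups the library with the most Fgfr2 had the highest cartilage share, 0.0502% in Scx- and 0.142% in Scx+. In neither day 14 group did it. The highest cartilage shares there were 0.0469% in Scx-, in the library with 491 units of Fgfr2, and 0.0457% in Scx+, in that with 765. Tendon lineage genes, at a mean of 3.88% in Scx- day 14, 7.43% in Scx+ day 14, 5.13% in Scx- day 7, 8.17% in Scx+ day 7 and 0.536% in control libraries, and macrophage genes, at 0.225%, 0.264%, 0.551%, 0.358% and 0.068%, were also higher in the stimulated groups, where Fgfr1 and Fgf10 had higher means too. The part of these cell types in the Fgfr2, Fgfr1 and Fgf10 results was not tested. Fgfr2 shares 314 exon bases with Ctbp2 on the same strand and Fgfr1 shares 164 with Gm16159 on the opposite one, and how the authors counted shared reads is not given in the sources used here.

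Fgfr1, the main receptor of connective tissue cells, rose in 3 of the 4 groups by less than 1.5-fold. It averaged 13295 ± 3158 units in Scx- day 14, 14109 ± 2235 in Scx+ day 14, 13172 ± 1616 in Scx- day 7 and 14058 ± 1406 in Scx+ day 7 libraries (SD, n = 4 each), against 9702 ± 723 in the control (SD, n = 3). Only the Scx- day 14 group overlapped the control, through replicate 1 at 9926. The log2 change was 0.53 ± 0.18 in both Scx+ day 14 (adjusted p = 0.0202, limma) and Scx+ day 7 (adjusted p = 0.017) and 0.44 ± 0.18 in Scx- day 7 (adjusted p = 0.0479). In Scx- day 14 it was 0.43 ± 0.18 and did not pass (adjusted p = 0.0646, limma). These calls sat close to the threshold. Of the 7 fits without 1 library, the Scx- day 7 call was lost in 6 (adjusted p up to 0.12, limma). The Scx+ day 14 call was lost in 3 of 7 (up to 0.0608) and the Scx+ day 7 call in 2 of 7 (up to 0.0538). No group passed once the muscle mean was in the fit (log2 0.29 to 0.40, adjusted p from 0.0711 to 0.355, limma).

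Fgfr3, the receptor tied to cartilage growth, lay below the control without overlap in the Scx+ groups and in Scx- day 7, at 151 to 479 in Scx+ day 14, 120 to 514 in Scx- day 7 and 173 to 597 in Scx+ day 7 libraries, against 597 to 609 in the control. In Scx+ day 7 this was a near tie, with the highest library at 596.7 and the lowest control one at 597.3. Fgfr3 ran from 174 to 923 in Scx- day 14 libraries, and no comparison of it passed (log2 -0.97 to -0.68 against the control, adjusted p from 0.156 to 0.308, limma).

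The Fgfr2 share of receptor signal was higher in the mean in all 4 stimulated groups than in the control. Of the signal per kilobase of Fgfr1 to Fgfr4, Fgfr1 held 87.2% in Scx- day 14, 89.3% in Scx+ day 14, 85.6% in Scx- day 7, 82.5% in Scx+ day 7 and 87.4% in control libraries (group means). The share of Fgfr2 was 3.88 ± 1.20% in Scx- day 14, 4.77 ± 1.66% in Scx+ day 14, 3.88 ± 2.49% in Scx- day 7 and 9.0 ± 1.67% in Scx+ day 7, against 1.69 ± 0.674% in the control (SD). It ran from 2.48% to 5.41% in Scx- day 14, 2.92% to 6.95% in Scx+ day 14 and 6.94% to 11% in Scx+ day 7 libraries. All these lay above the 1.04% to 2.39% of the control, which Scx- day 7 overlapped (1.36% to 7.29%). The share of Fgfr3 averaged 2.94% to 4.44% in the stimulated groups, against 7.53% in the control. That of Fgfr4 averaged 3.01% (Scx+ day 14) to 7.26% (Scx- day 7), against 3.38% in the control.

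**Figure D3:**
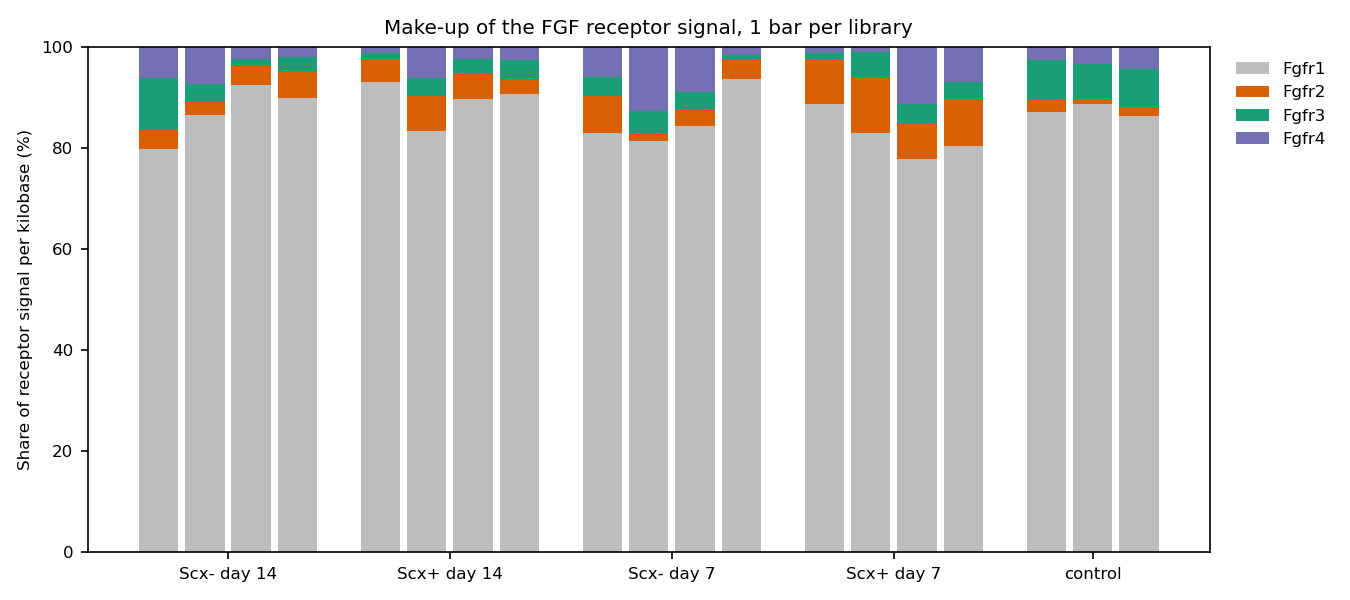
Share of the summed signal per kilobase (%, from 0) of Fgfr1, Fgfr2, Fgfr3 and Fgfr4, with 1 stacked bar per library in replicate order within each group. Fgfr1 fills most of every bar, and the Fgfr2 band is widest in Scx+ day 7 libraries (6.94% to 11%).

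Counted together, 3 members rose and none fell in Scx- day 14 libraries, where 25.5% of all tested genes rose and 18.3% fell. In Scx+ day 14, 2 rose and 1 fell, against 30.9% and 25% of all genes. In Scx- day 7, 2 rose and 1 fell, against 32.3% and 25.9%, and in Scx+ day 7, 3 rose and 2 fell, against 33.8% and 27.5% (limma, adjusted p under 0.05). With 8 members these counts are near the background. Groups without overlap gave a like picture: 3 members lay above the control and none below in Scx- day 14 (20.7% and 17.4% of all genes), 2 above and 2 below in Scx+ day 14 (26.9% and 25%), 1 above and 2 below in Scx- day 7 (30.8% and 27.3%), and 3 above and 3 below in Scx+ day 7 (33.4% and 28.9%). The median change over the 8 genes was 0.34, -0.33, -0.04 and -0.20 in the same order of groups, beside 0.12, 0.15, 0.14 and 0.18 over all tested genes. The 4 comparisons share the 3 control libraries.

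**Figure D4:**
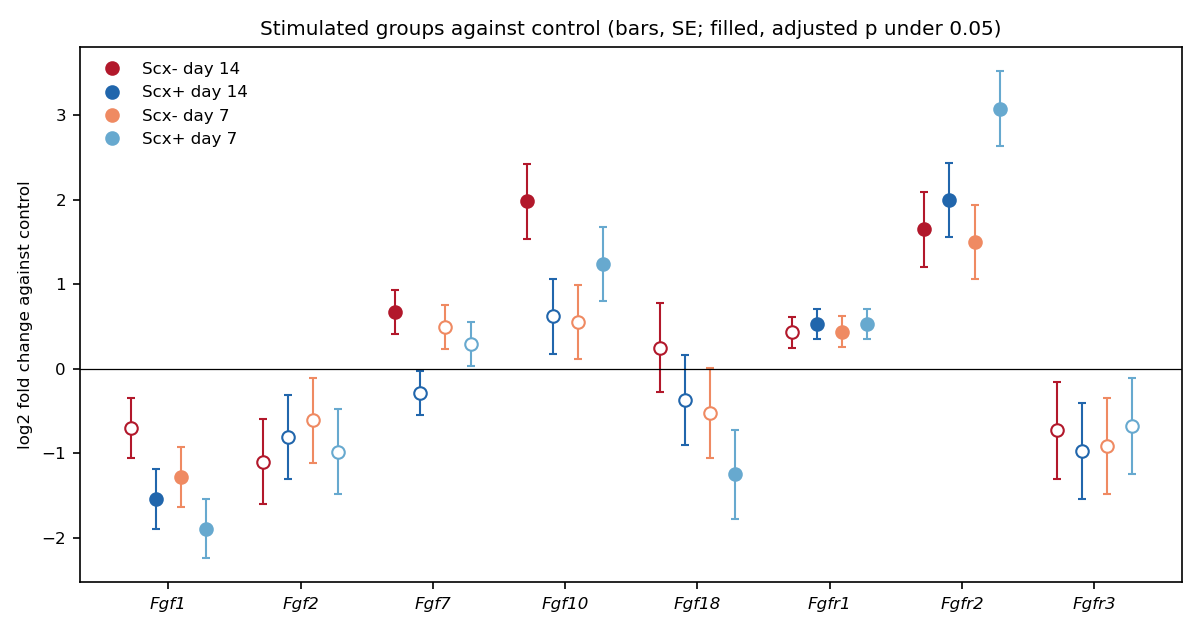
Log2 fold change against the control of the 8 genes in the 4 stimulated groups, with SE bars and filled points where the adjusted p was under 0.05. Fgfr2 is filled in all 4 groups, from 1.5 to 3.08, and Fgf1 is filled below 0 in 3.

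Between genotypes no member passed at either day. At day 14, where 0.517% of all genes passed, 3 of the 8 had an unadjusted p under 0.05 (2429 of 16625 genes did). On the deposited scale 5.97% of all genes passed (993) and still no member. After rescaling, Fgf7 and Fgf10 were higher in every Scx- library than in any Scx+ one. Of all genes 4.81% had no overlap in either direction. The rescaling factors were 0.838 to 0.857 in Scx- and 0.994 to 1.02 in Scx+ libraries, which raised Scx- values relative to Scx+. Before rescaling Fgf7 overlapped, with Scx- replicate 2 below Scx+ replicate 2, and Fgf10 did not. Fgf10 was 476.5 ± 300.3 units in Scx- and 164 ± 18.1 in Scx+ libraries (SD, n = 4 each), a log2 difference of 1.36 ± 0.41 (adjusted p = 0.184, limma), and Fgf7 1232 ± 319 in Scx- and 646 ± 204 in Scx+, a difference of 0.95 ± 0.24 (adjusted p = 0.111). Without Scx- day 14 replicate 3 the Fgf10 difference was 0.98 (adjusted p = 0.157). In the authors' deposited table the Fgf10 difference was 1.49 ± 0.40 with an adjusted p of 0.0271, where 177 of 15951 genes were under 0.05. At day 7, where 0.77% of all genes passed (1207 had an unadjusted p under 0.05) and 7.89% had no overlap, every member overlapped and Fgfr2 had the only unadjusted p under 0.05, with 649 ± 497 units in Scx- and 1595 ± 249 in Scx+ libraries (log2 -1.58 ± 0.40, adjusted p = 0.0932, limma). Over the 8 fits without 1 library it ran from -2.04 to -1.18 (adjusted p from 0.00514 to 0.373, limma). Only 1 of them passed, that without Scx- day 7 replicate 1, the library at 1360 (-2.04, adjusted p = 0.00514, limma). The authors' deposited table has -1.31 ± 0.44 and an adjusted p of 0.0557 for Fgfr2, where 755 of 15951 genes were under 0.05. Red cell precursor genes moved with the same split of libraries, at 0.000592% to 0.0245% of the signal in Scx- day 7 and 0.546% to 2.42% in Scx+ day 7, and their part in it was not tested.

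The genotype differences themselves changed most between days for Fgf10, by log2 2.04 ± 0.58 (day 14 less day 7, adjusted p = 0.399, limma), and for Fgfr2, by 1.23 ± 0.57 (adjusted p = 1). No member passed this test, which 0.018% of all genes did, and 3 of the 8 had an unadjusted p under 0.05, as had 721 of the 16625 genes. Over time, no member passed in Scx- mice (5.25% of all genes did) and none was free of overlap (12.5% were), and Fgf10 came closest at 476.5 units at day 14 against 179 at day 7 (log2 1.43 ± 0.41, adjusted p = 0.0511, limma), the only member with an unadjusted p under 0.05, where 3636 of all genes had one. Fgf10 passed in 2 of the 8 fits without 1 library, those without Scx- day 7 replicate 4 (1.82, adjusted p = 0.018) or Scx- day 14 replicate 4 (1.54, adjusted p = 0.0428, limma). Over all 8 the Fgf10 change ran from 1.06 to 1.82, with an adjusted p of up to 0.146 (limma). In Scx+ mice 0.0301% of all genes passed and no member did. The 2 members with an unadjusted p under 0.05 were Fgfr2 and Fgf7 (log2 -0.57 ± 0.24, limma), where 1757 of all genes had one. Fgfr2 and Fgf10 were lower at day 14 than at day 7 without overlap there, where 9.89% of all genes had no overlap in either direction. For Fgfr2 the signal was 762 ± 174 at day 14 and 1595 ± 249 at day 7 (log2 -1.08 ± 0.40, adjusted p = 0.325, limma), and in the authors' deposited table the change was -1.07 ± 0.21 with an adjusted p of 8.86e-05. There 796 of 15951 genes were under 0.05, many more than the 0.0301% that passed here.

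**Figure D5:**
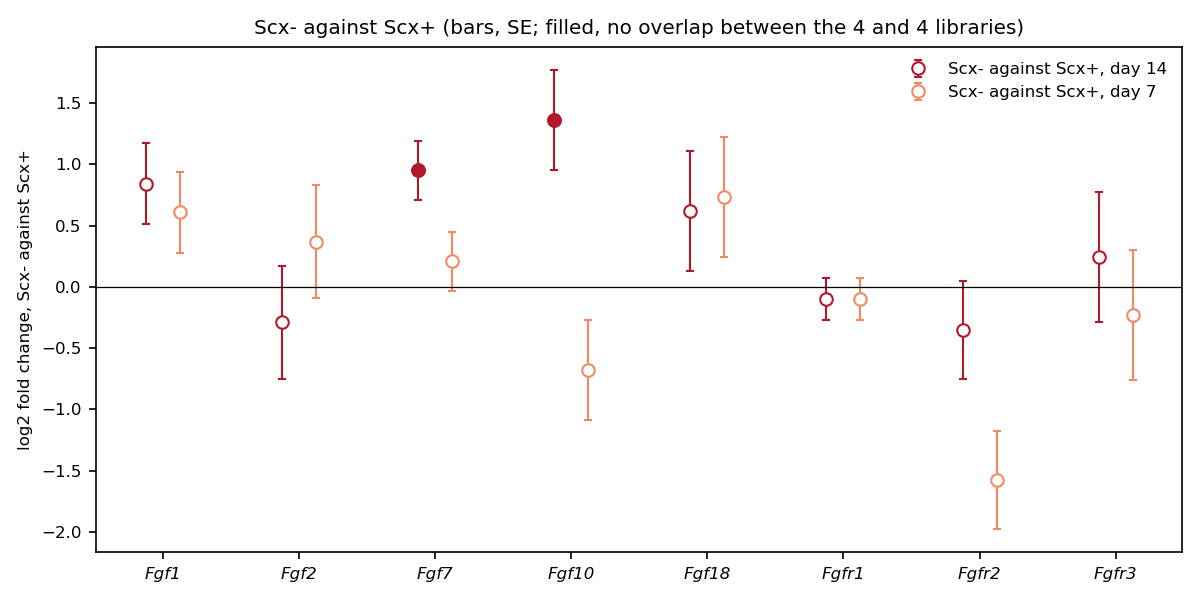
Log2 fold change of Scx- against Scx+ libraries at day 14 and day 7 for the 8 genes, with SE bars and filled points where the 4 and 4 libraries did not overlap after rescaling. Fgf7 (0.95) and Fgf10 (1.36) are filled at day 14, and Fgfr2 at day 7 (-1.58) is open.

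Beside the lists that follow, in the order Scx- day 14, Scx+ day 14, Scx- day 7 and Scx+ day 7, 25.5%, 30.9%, 32.3% and 33.8% of all tested genes rose against the control and 18.3%, 25%, 25.9% and 27.5% fell, with medians of 0.12, 0.15, 0.14 and 0.18. Of 9 tested among 19 other FGF genes, 2 rose and 2 fell in Scx- day 14, 2 and 2 in Scx+ day 14, 2 and 3 in Scx- day 7, and 4 and 2 in Scx+ day 7 libraries against the control (limma, adjusted p under 0.05), with medians of 0.24, 0.11, 0.57 and 0.50. As shares, 22.2%, 22.2%, 22.2% and 44.4% rose and 22.2%, 22.2%, 33.3% and 22.2% fell. Fgf6, a muscle FGF, averaged 29.7, 19.3, 14.1 and 4.02 units in these groups, against 357 in the control, and fell in all 4. The muscle fibre share moved with it, as given above, and its part was not tested. Fgf13, an intracellular relative that binds sodium channels, averaged 768, 262, 334 and 214 units, against 1944 in the control, and did not pass in Scx- day 14 (adjusted p = 0.0972, limma). Fgf16 rose in all 4, by log2 1.73 to 3.06. Of the 20 relay genes 2, 3, 4 and 4 rose (10%, 15%, 20% and 20%) and 8, 9, 9 and 10 fell (40%, 45%, 45% and 50%), with medians of -0.34, -0.38, -0.24 and -0.23. Shc1, an adaptor, rose by log2 1.08 to 1.38, and Sos2 (-2.0 to -1.03), which activates Ras, and Map2k2 (-1.61 to -1.07), which activates ERK, fell in all 4 groups.

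Of 16 tested co-receptors and binders, 9, 11, 9 and 11 rose (56.2%, 68.8%, 56.2% and 68.8%) and 3, 1, 3 and 3 fell (18.8%, 6.25%, 18.8% and 18.8%) in the same order of groups, with medians of 0.98, 0.9, 0.86 and 1.1. Of all tested genes 25.5% to 33.8% rose and 18.3% to 27.5% fell. Cdh2, N-cadherin, which can bind FGF receptors, rose 5.26-, 11.8-, 11.2- and 16-fold. Gpc6, a heparan sulfate carrier, rose 4.7-, 6.99-, 6.37- and 7.4-fold. Fgfbp1, which frees FGFs from the matrix, fell in all 4 groups: it ran from 0 to 5.19 units in Scx- day 14, 0 to 16.8 in Scx+ day 14, 4.08 to 16.8 in Scx- day 7 and 0 to 11.9 in Scx+ day 7 libraries, against 409 to 1518 in the control. Of 13 heparan sulfate enzymes 6, 7, 7 and 7 rose (46.2% and then 53.8%) and 2, 2, 3 and 3 fell (15.4%, 15.4%, 23.1% and 23.1%). Hpse, which cuts heparan sulfate, rose 6.16-, 5.76-, 17.4- and 8.78-fold. Sulf2, which removes sulfate groups from it, rose 3.41-, 5.12-, 4.38- and 5.44-fold. Of 18 tested feedback inhibitors and ERK targets, 4, 3, 5 and 6 rose (22.2%, 16.7%, 27.8% and 33.3%) and 1 fell in each group (5.56%). The share that rose was no higher than that of all genes in any group, and the share that fell was lower. The median changes of this list were 0.4, 0.39, 0.43 and 0.47, above the 0.12, 0.15, 0.14 and 0.18 of all genes. Dusp6, a phosphatase that inactivates ERK, rose 1.64-, 1.75-, 2.15- and 2.35-fold. Spred1, a Ras pathway inhibitor, rose 1.5-, 1.89-, 2.28- and 2.12-fold. Spry4 and Etv5, named here after their values were seen, did not pass in any group (log2 -0.78 to 0.08 for Spry4 and 0.47 to 0.51 for Etv5, adjusted p at least 0.0593, limma). The 1 gene that fell was Etv1, a transcription factor, in Scx- day 14 (log2 -1.26) and Sh2b1, an adaptor, in the other 3 groups (-1.09 to -0.82). Between genotypes none of the 76 genes of these 5 lists passed at either day. Of all tested genes 0.517% passed at day 14 and 0.77% at day 7. An unadjusted p under 0.05 was found for 11 of the 76 at day 14 and 9 at day 7 (limma). Of all 16625 genes, 2429 and 1207 had one. In Scx- mice at day 14 against day 7, 2 of the 76 passed, where 5.25% of all genes did: Sdc3 (log2 -1.58 ± 0.26, adjusted p = 0.00158, limma) and Hpse (-1.5 ± 0.39, adjusted p = 0.0342).

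Other genes were searched for the profile most like each of the 6 members that passed in at least 1 comparison, Fgf2 and Fgfr3 having passed in none, by the root mean square difference of centred log2 values over the 19 libraries, among 12363 genes with a mean of at least 100 units. Nearest to Fgfr2 were Ptgfr, a prostaglandin receptor, at 0.404, Fads2 at 0.44 and Chsy1 at 0.491, beside the 1.11 SD of Fgfr2 itself. Nearest to Fgf1 were Nrd1 at 0.273, Ugp2 at 0.282 and Dnajc21 at 0.283. Nearest to Fgf10 were Dlx5 at 0.52, Sult5a1 at 0.555 and Gas6 at 0.575, beside the 0.866 SD of Fgf10. Nearest to Fgf7 was Relb at 0.373, little under the 0.475 SD of Fgf7. Nearest to Fgf18 were C1qtnf7 at 0.443 and Fam124a at 0.449, and nearest to Fgfr1 was Fbxl6 at 0.105, beside the 0.272 SD of Fgfr1.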

How the data were processed

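RNA from 19 mouse plantaris tendon samples had been sequenced by the authors. Per the submitters' processing notes, FastQC, STAR and DESeq2 and the build mm10 were used, with no versions. Values in the deposited table of all libraries are a scaled signal and not whole numbers, so no count test was run and read depth is unknown. The deposited second table holds the authors' log2 fold changes with SE and adjusted p-values, used only where named. The signal was rescaled by medians of ratios over 13703 genes (factors 0.838 to 1.09). A gene was tested if 3 or more libraries had 10 units or more, on log2(value + 2), which understates changes of low genes, in 1 fit of 5 groups with limma 3.58.1 in R 4.3.3 (mean-variance trend, robust moderation), Benjamini-Hochberg over 16625 genes, threshold 0.05. A fold change is on that scale. Group values are means with SD, fold changes have SE. The labels do not state separate animals, so p-values measure the spread between samples.

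The members, the lists and the tests were chosen with earlier results of these data known. Named genes were the 8 members, up to 4 passing genes of largest change per list and comparison (or 2 abundant ones where none passed), Nudt6, and the 3 nearest genes by profile; some were left out for length, 1 gene that the rule names is not reported here, and Spry4 and Etv5 were added after their values were seen. Positions and lengths came from GENCODE M21, promoters from RefSeq (GRCm38.p6), where 6 members had a printable entry. The scripts were tested on simulated data. Alternatives were library totals, the deposited scale, a trimmed mean, pseudocounts of 1 and 10, no filter, a stricter filter on the mean, no robust moderation, sample quality weights, the replicate block, a muscle covariate, only the groups compared, the longest transcript, and leaving out libraries. Figures were drawn with matplotlib 3.10.9 in Python 3.11.15.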

Additional observations from a re-analysis of the deposited data

Results flagged for a closer look

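In 4 of 32 sets of 4 libraries 1 library stood far from the others by Dixon's ratio of gap to range, past its critical value, where chance gives about 5%. Fgf10 was 924 in Scx- day 14 replicate 3 (ratio 0.872), the others being 282 to 364. Fgf18 was 1068.7 in the same library (ratio 0.837), the others being 175 to 321. Fgf18 was 167.9 in Scx+ day 7 replicate 1 (ratio 0.87), the others being 105 to 113. Fgfr1 was 16157.9 in that same library (ratio 0.895), the others being 13172 to 13487. Without Scx- day 14 replicate 3, the Fgf18 change against the control was -0.29, where it was 0.25 with it, and neither passed (adjusted p = 0.633 and 0.72, limma).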

How the results depend on the processing

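No result turned its direction among called values. Single-gene results gave 865 unchanged values, 22 weaker calls, 14 stronger calls and 3 levels that moved, and fits without 1 library gave 576, 25 and 7. Library totals moved the median of all genes against the control to 0.58, 0.73, 0.81 and 0.83 (Scx- and Scx+ day 14, Scx- and Scx+ day 7). There Fgf1 in Scx- day 7 no longer passed (-0.58, adjusted p = 0.141, limma), nor did Fgf18 in Scx+ day 7 (-0.58, 0.357), whereas Fgf7 passed at day 7 (1.19 in Scx-, 0.96 in Scx+), Fgf10 in Scx+ day 14 (1.22, 0.026) and Scx- day 7 (1.24, 0.0232), and Fgfr1 in Scx- day 14 (0.9, 0.00164). The deposited scale moved that median in Scx- day 14 to -0.2, where Fgf7 was 0.33 (adjusted p = 0.312) and Fgf1 (-1.04, 0.0218) and Fgf2 (-1.42, 0.0259) passed, and Fgfr1 in Scx- day 7 no longer did (0.36, 0.0935). That scale gave 993 genes in place of 86 for Scx- against Scx+ at day 14. The count of members that passed for Scx- against Scx+ at day 7 was 1 with sample quality weights (Fgfr2, -1.55, adjusted p = 0.0252, limma) and ranged from 0 to 1 without 1 library. Of all genes 2.88% passed with the weights and 0.277% to 1.12% without 1 library, beside 0.77% in the fit reported above. In Scx+ day 7 against the control the count was 2 with the muscle covariate, where 35.8% of all genes passed. It ranged from 2 to 4 without 1 library, where 56.3% to 60.1% of all genes passed. In the fit reported above 33.8% of all genes rose and 27.5% fell. In Scx- day 14 against the control the count was 5 without replicates 1 and 2 together, the muscle-rich libraries, where 51.3% of all genes passed. It ranged from 2 to 5 without 1 library, where 35.4% to 48.1% of all genes passed. In the fit reported above 25.5% of all genes rose and 18.3% fell. For Scx- day 14 against day 7 the count was 1 with a pseudocount of 10, a stricter filter, quality weights or the muscle covariate (Fgf10, 1.38 to 1.74). Of all genes 5.98%, 6.74%, 3.62% and 3.22% passed in these fits, beside 5.25% in the fit reported above. The count ranged from 0 to 1 without 1 library, where 2.23% to 8.91% of all genes passed. The cause of these shifts was not tested. Per kilobase of the longest transcript Fgfr1 was 2586, Fgfr2 179 and Fgfr3 99.5. Most same-numbered libraries of different groups were not alike in their values: 6 of 36 such pairs correlated above 0.1 (range -0.43 to 0.35). The best match in another group had the same number in 15 of 72 cases. These values cannot show whether the samples were paired. With the replicate block, Fgfr1 in Scx- day 7 (0.42, adjusted p = 0.0911) and Fgf7 in Scx- day 14 (0.63, 0.0874) no longer passed, and no other call changed. Unknown depth limits the scarce members, Fgf2 above all.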
